A study of Arabidopsis thaliana with 6 samples.

Results

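Cutin is the polyester that forms the framework of the plant cuticle, the film over the outer wall of epidermal cells. To follow its synthesis in young flower buds, 10 genes were taken by their locus identifiers from the 27628 Arabidopsis loci of the count tables. They are LACS2 (AT1G49430), CYP86A2 (AT4G00360), CYP86A4 (AT1G01600), CYP77A6 (AT3G10570), GPAT4 (AT1G01610), GPAT6 (AT2G38110), GPAT8 (AT4G00400), DCR (AT5G23940), ABCG32 (AT2G26910) and BDG (AT1G64670). The rule names the genes by identifier and sets no threshold on a measured value. All 10 genes passed the filter on low counts, as did 18642 genes in all.

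The RNA came from young flower buds, given as stage 6 to 9, of Arabidopsis of the Col background. The plants were kept in a greenhouse at 23 °C under 16 h of light and 8 h of darkness. The 3 wild type (WT) libraries carried no transgene, and the 3 transgenic libraries carried BnA9::BnMAGL8.1, in which the tapetum-active promoter BnA9 drives the rapeseed monoacylglycerol lipase gene BnMAGL8.1. The replicates were biological according to the series' design, but the sources used here do not give the number of plants in each, the hour of harvest, or whether the transgenic replicates came from 1 line. The smallest library held 13519945 counts and the largest 14729927. Transgene counts were 0 in all WT libraries, and 5552, 853 and 9594 in the transgenic libraries by replicate number.

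In the working model of cutin synthesis, a fatty acid is activated to its CoA ester by an acyl-CoA synthetase, oxidized at its end by CYP86A enzymes and within its chain by CYP77A6, and joined to glycerol by glycerol-phosphate acyltransferases of the GPAT family. The resulting monomers leave the cell through ABCG transporters and are linked to each other outside it. Petals and other floral organs of Arabidopsis carry a cutin rich in dihydroxy fatty acids, whose synthesis is known to need GPAT6, CYP77A6 and DCR.

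The genes included close copies, and this bears on what their counts can separate. CYP86A2 and CYP86A4 were identical at 82.4% of the aligned positions of their coding sequences, and GPAT4 and GPAT8 at 82.7%, whereas GPAT6 and GPAT4 reached 63.8%. Each pair of closest copies was split over chromosomes 1 and 4. In the TAIR10.1 assembly CYP86A4 (chr1:218834-221286, plus strand) and GPAT4 (chr1:221642-224351, minus strand) were next to each other with 355 bases between them. CYP86A2 (chr4:160643-163023, plus strand) and GPAT8 (chr4:173953-176870, minus strand) lay 10929 bases apart with 3 genes between them. A stretch of 50 bases was shared by the CYP86A pair at 1 place only. GPAT6 shared 1 such stretch and GPAT8 shared 6 with loci outside the set, while GPAT4, DCR, LACS2, BDG and ABCG32 shared none with any other annotated transcript. The coding sequences around that place, from base 487 to base 596 counted from the start codon, are shown from RefSeq with the 14 bases that differ in capitals, because they show how closely the shared run is bounded by differences.
CYP86A2: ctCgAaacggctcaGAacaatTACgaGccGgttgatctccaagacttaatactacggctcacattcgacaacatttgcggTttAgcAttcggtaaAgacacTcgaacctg
CYP86A4: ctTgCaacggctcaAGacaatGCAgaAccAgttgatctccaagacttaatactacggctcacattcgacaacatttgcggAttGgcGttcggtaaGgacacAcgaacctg

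CYP77A6 (chr3:3301887-3303982) shared a longer run, of 61 bases, with CYP77A4 (AT5G04660) and the overlapping locus AT5G04670. The run spans bases 923 to 983 of its coding sequence, and it is given because a read that lies wholly inside it cannot be assigned to 1 of these genes.
CYP77A6: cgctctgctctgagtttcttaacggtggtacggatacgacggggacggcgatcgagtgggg
In all, at most 24 of the 2047 stretches of 50 bases in the CYP77A6 exons were shared. The 24 is an upper limit, because a stretch found on both strands of the overlapping loci was counted once for each strand. Of the CYP86A2 exon sequence, 812 of 2166 such stretches were shared, almost all with the antisense neighbours AT4G00370 and AT4G03585 that overlap its 3′ part, so its counts are the least certain. BDG overlapped the opposite-strand gene AT1G64660 at its end. How strand and multiply mapped reads were treated is not given in the sources used here.

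First, the levels of the 10 genes were compared with each other. The comparison used CPM, the counts of a gene scaled to a common library size, divided by the exon length in kb and averaged over all 6 libraries. DCR, an acyltransferase of the BAHD family, stood at 496.6 CPM per kb, above 98.8% of the genes tested. CYP77A6, the in-chain hydroxylase, followed at 120.1, GPAT6 at 104.2, CYP86A4 at 91.71 and GPAT4 at 85.01 CPM per kb. GPAT8 stood at 36.12, LACS2 at 32.4, BDG at 20.43 and ABCG32 at 18.28 CPM per kb. CYP86A2, whose counts were the least certain because of its antisense neighbours, was lowest with 6.286 CPM per kb. This was under the median of 7.415 over all genes tested with an annotated length. The 10 genes therefore spanned the range from the 46.1 to the 98.8 percentile of level.

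Not every step in this order was larger than the spread between libraries. The lowest library of the higher gene lay above the highest library of the lower gene at 3 of the 9 steps, which were DCR over CYP77A6 (a ratio of means of 4.13), GPAT4 over GPAT8 (2.35) and ABCG32 over CYP86A2 (2.91). Between CYP77A6 and GPAT6 the order changed among libraries, with CYP77A6 higher in 3 of 6. GPAT6 stood above CYP86A4, and CYP86A4 above GPAT4, in 6 of 6 libraries each, although the ranges overlapped.

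**Figure D1:**
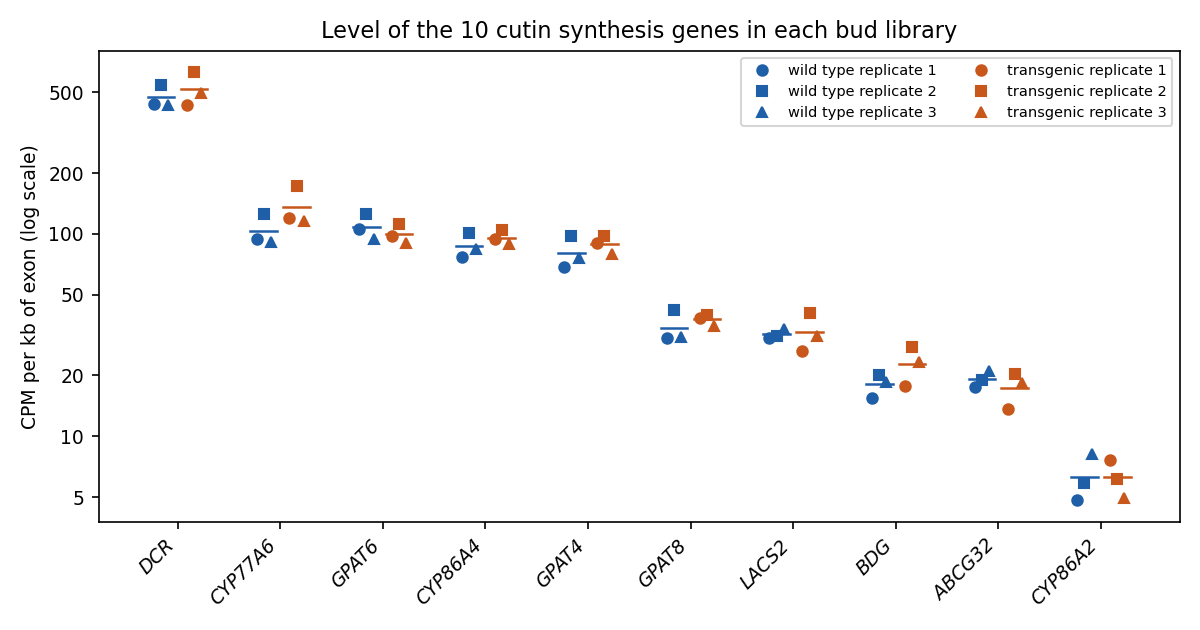
Level of each cutin synthesis gene in every library, as CPM per kb of exon on a log scale, for WT (blue) and transgenic buds (orange), with the replicate as symbol and the genotype mean as a bar. DCR stood above the other 9 genes in each library, CYP86A2 stood below them, and the libraries of the genotypes overlapped for every gene.

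Next, transgenic buds were compared with WT buds, gene by gene. No cutin synthesis gene was called different between the genotypes. At an adjusted p under 0.05, 0 of the 10 genes were called by edgeR, where the background over all genes tested was 0.0161%, and 0 by DESeq2 or voom. With an unadjusted p under 0.05 the count was also 0 of 10, against 6.84% of all genes, and with DESeq2 at an unadjusted p under 0.01 it was 0 of 10, against 1.68%. For none of the 10 did the libraries of 1 genotype all lie above those of the other, which 12.2% of all genes did. With 10 genes, a count of 0 is near what these backgrounds give. Fitted values were above 0 for 7 genes and under 0 for 3, with a median log2 fold change of 0.13 beside -0.01 over all genes tested. In these bulk samples, fewer cells of a type and less RNA per cell cannot be told apart.

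The intervals bound the size of a change. All 10 of the 95% intervals of the log2 fold change lay between -1 and 1, and the outermost bounds were -0.58 and 0.85, while 4 of the 10 lay wholly within 0.5 of 0. A 2-fold change in either direction was thus outside the interval of each gene. The median SD of log2 CPM between replicates of a genotype was 0.23 for the 10 genes and 0.28 for all genes tested, and it was 0.20 for the 8944 genes within the same range of levels. Counts per library ran from 154 (CYP86A2) to 16852 (DCR).

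**Figure D2:**
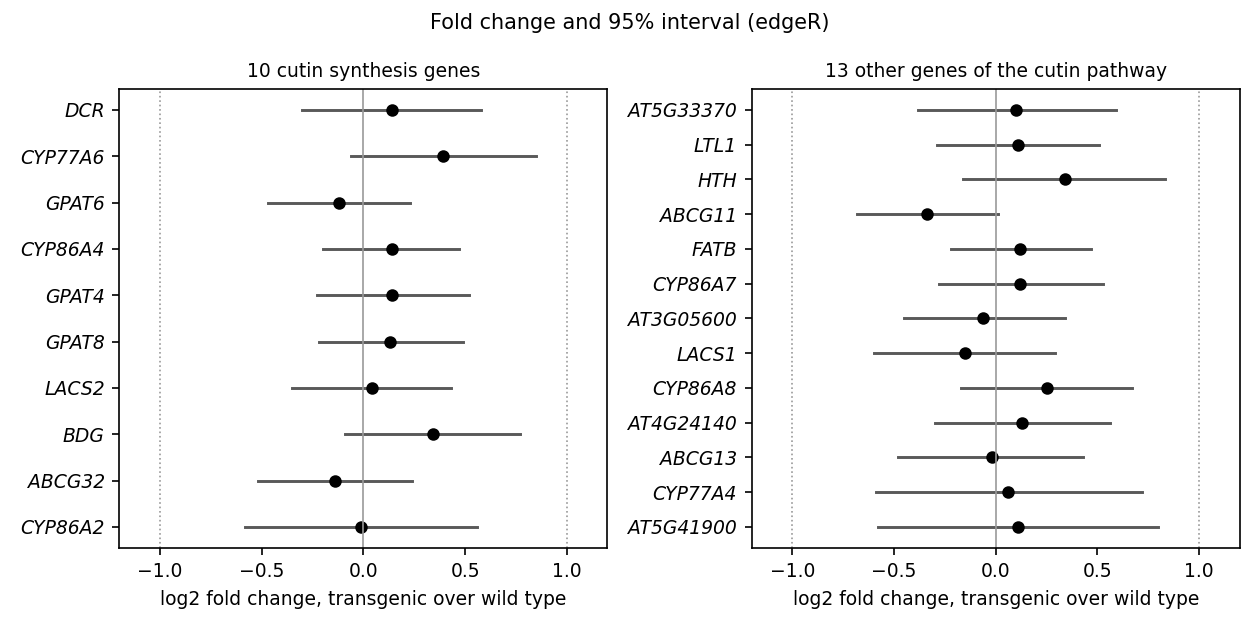
Log2 fold change of transgenic over WT buds with its 95% interval from edgeR's fit, for the 10 cutin synthesis genes (left) and 13 further genes of the cutin pathway (right), ordered by level per kb, with dotted lines at -1 and 1. All intervals crossed 0, and those of CYP77A6 (-0.06 to 0.85) and ABCG11 (-0.68 to 0.01) lay farthest to either side.

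LACS2, the acyl-CoA synthetase at the entry to the pathway, read 87.26, 89.97 and 97.53 CPM in WT replicates 1, 2 and 3, and 75.72, 117.1 and 89.79 CPM in the transgenic ones. The transgenic libraries lay on both sides of the WT libraries. The log2 fold change was 0.04 ± 0.17 (SE), with an adjusted p of 0.978.

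Of the 3 cytochrome P450 genes, CYP86A4 encodes a terminal hydroxylase of fatty acids that is used in flowers. It had 178.2, 235.2 and 195.8 CPM in WT buds and 218.7, 242.4 and 207.9 CPM in transgenic buds, a mean of 203.1 ± 29.2 against 223.0 ± 17.7 CPM (SD, n = 3 each). Its log2 fold change was 0.14 ± 0.15 (SE), and the genotypes overlapped. CYP86A2, its closest copy, had 10.7, 13.07 and 18.15 CPM in WT buds and 16.91, 13.69 and 11.02 CPM in transgenic buds. The WT libraries held both the lowest and the highest value, and the log2 fold change was -0.01 ± 0.25 (SE).

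CYP77A6, whose enzyme adds the mid-chain hydroxyl group of floral cutin, had the lowest p of the 10 genes. It read 198.2, 263.8 and 190.7 CPM in WT replicates 1, 2 and 3 and 251.6, 363.6 and 242.8 CPM in the transgenic ones. The transgenic replicates 1 and 3 were above WT replicates 1 and 3 but under WT replicate 2. The fold was 1.31, with an interval of 0.96 to 1.80, an unadjusted p of 0.0818 and an adjusted p of 0.743 (edgeR). Without WT replicate 2 the log2 fold change was 0.56 instead of 0.39, with an unadjusted p of 0.0285 and an adjusted p of 0.557.

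The GPAT enzymes transfer the acyl chain to glycerol 3-phosphate. GPAT4 and GPAT8, which have overlapping functions in leaves and stems, had nearly the same fold. GPAT4 read 132.2, 186.9 and 145.1 CPM in WT buds and 173.4, 187.9 and 151.7 CPM in transgenic buds, a log2 fold change of 0.14 ± 0.16 (SE). GPAT8 read 60.9, 83.81 and 61.78 CPM in WT buds and 76.52, 79.69 and 70.26 CPM in transgenic buds, a log2 fold change of 0.13 ± 0.16 (SE). For both, WT replicate 2 stood far above the other WT replicates, and its value was close to or above the highest transgenic one.

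GPAT6 is the member of the family needed for cutin in petals, and it also acts in the tapetum and pollen. It read 233.9, 278.8 and 208.7 CPM in WT replicates 1, 2 and 3, and 216.3, 246.6 and 200.5 CPM in the transgenic ones, a log2 fold change of -0.12 ± 0.15 (SE). The highest library was WT and the lowest transgenic, but the ranges overlapped. The tapetum markers were lower in value in transgenic buds for 6 of 6 tested genes, and AMS, a tapetum transcription factor, was lower without overlap (log2 fold change -0.77, unadjusted p 0.00213, adjusted p 0.565). The summed CPM of the 8 tapetum markers was 1583.6 to 2185.6 in WT and 985.8 to 1931.8 in transgenic buds, with DYT1 at 0 in each library. The part of the tapetum in the GPAT6 values was not tested.

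DCR, whose mutants lack most dihydroxy monomers of floral cutin, had 854.4, 1063.4 and 847.7 CPM in WT buds and 840.6, 1227.6 and 971.2 CPM in transgenic buds. The lowest and the highest library were both transgenic, and the log2 fold change was 0.14 ± 0.19 (SE).

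Downstream of monomer synthesis, ABCG32 encodes a transporter of cutin precursors. It read 86.8, 93.95 and 104.4 CPM in WT buds and 67.47, 100.4 and 90.72 CPM in transgenic buds, a log2 fold change of -0.14 ± 0.17 (SE), with transgenic replicate 1 below all the others. BDG, an extracellular protein of the alpha/beta hydrolase family that epidermal cells need for an intact cuticle, read 28.81, 37.32 and 34.56 CPM in WT buds and 32.85, 51.06 and 43.07 CPM in transgenic buds. Transgenic replicates 2 and 3 were above all WT libraries, and replicate 1 was above WT replicate 1 only. The log2 fold change of BDG was 0.34 ± 0.19 (SE), with an unadjusted p of 0.11. Without transgenic replicate 1 the value was 0.49 with an unadjusted p of 0.0255 and an adjusted p of 0.896, and BDG was then the 1 gene of the 10 whose genotypes did not overlap, where 20.8% of all genes did not.

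WT replicate 2 decided the largest number of these overlaps. Without it, CYP86A4, CYP77A6, GPAT4 and GPAT8 lay above the WT libraries in all transgenic libraries, which makes 4 of 10 instead of 0, while 27.3% of all genes then did not overlap in either direction. The median log2 fold change of the 10 genes was 0.26 without WT replicate 2, 0.04 without transgenic replicate 2 and 0.05 without WT replicate 1.

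To describe how the libraries varied, each gene's log2 CPM was centred on its mean over the 6 libraries. Transgenic replicate 2 held the highest value of 6 genes and WT replicate 1 the lowest value of 5. Averaged over the 10 genes, the libraries stood at -0.21, 0.11 and -0.06 for WT replicates 1, 2 and 3 and at -0.06, 0.26 and -0.05 for the transgenic ones. The 6 epidermis markers were all expressed, and their averages were -0.11, 0.09 and 0.03 in WT buds and -0.17, 0.18 and -0.01 in transgenic buds. Their summed CPM was 1661.0 to 2086.6 in WT and 1859.0 to 2094.1 in transgenic buds. Here too transgenic replicate 2 stood highest, and 0 of the 6 markers had an unadjusted p under 0.05. The averages of the tapetum markers ran from 0.72 in WT replicate 3 to -0.91 in transgenic replicate 2. Transgenic replicate 2 was also the transgenic library with the fewest transgene counts. A score of evening against morning clock genes was 0.50, 3.24 and -5.08 in WT replicates 1, 2 and 3 and -0.24, -0.98 and 2.57 in the transgenic ones, so it varied within both genotypes. The part of the tissue, the transgene level and the clock in the cutin values was not tested. With the clock score as a covariate, 0 of 10 genes had an unadjusted p under 0.05 for genotype, beside 10.3% of all genes.

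The genes did not all follow this common pattern. As a description over 6 libraries, the correlation of a gene with the average of the 10, which contains it, was 0.92 for CYP86A4, 0.91 for DCR, 0.89 for CYP77A6 and 0.87 for GPAT4. It was 0.85 for BDG, 0.78 for GPAT8, 0.69 for LACS2 and 0.52 for GPAT6. ABCG32 and CYP86A2 gave 0.38 and 0.16, and both were highest in WT replicate 3, where most of the others were low.

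**Figure D3:**
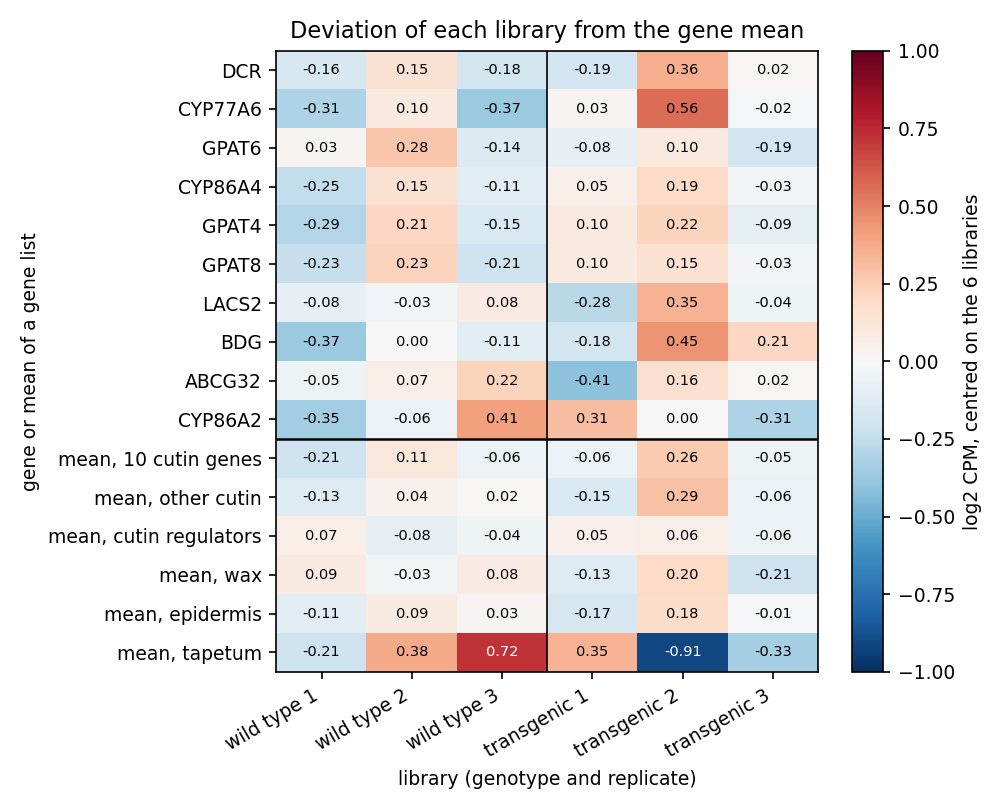
Log2 CPM of each cutin synthesis gene in each library, centred on its mean over the 6 libraries, above the line, and the means of 6 gene lists below it, with red for high and blue for low. Transgenic replicate 2 was high for most cutin genes (mean 0.26) and for the epidermis markers (0.18) and low for the tapetum markers (-0.91), and ABCG32 and CYP86A2 departed from the others.

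Ratios within a library remove what moves all genes of that library together. Ratios of CPM per kb were taken for 6 pairs, which were chosen after the values had been seen, so they are a description without a test. The share of other gene pairs whose ratios do not overlap was not computed. GPAT4 stood in a steady ratio to its copy GPAT8, with 2.35 ± 0.094 in WT and 2.36 ± 0.10 in transgenic buds (SD). CYP86A4 over CYP86A2 was 14.4 ± 3.7 and 15.7 ± 3.0, so the pair on chromosomes 1 and 4 also kept overlapping ratios. CYP77A6 over GPAT6 was 0.895, 1.00 and 0.965 in WT replicates 1, 2 and 3 and 1.23, 1.56 and 1.28 in the transgenic ones. The libraries of the genotypes did not overlap for this ratio. CYP77A6 over CYP86A4 was 1.19 ± 0.091 in WT and 1.41 ± 0.22 in transgenic buds, and GPAT6 over GPAT4 was 1.36 ± 0.15 and 1.12 ± 0.035, also without overlap. DCR over GPAT6 was 4.37 ± 0.23 and 5.19 ± 0.68 and overlapped. Of the summed CPM per kb of the 3 GPAT genes, GPAT6 held 48.6 ± 2.5% in WT and 44.0 ± 0.79% in transgenic buds (SD), and GPAT4 held 36.0 ± 2.1% and 39.3 ± 0.66%.

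**Figure D4:**
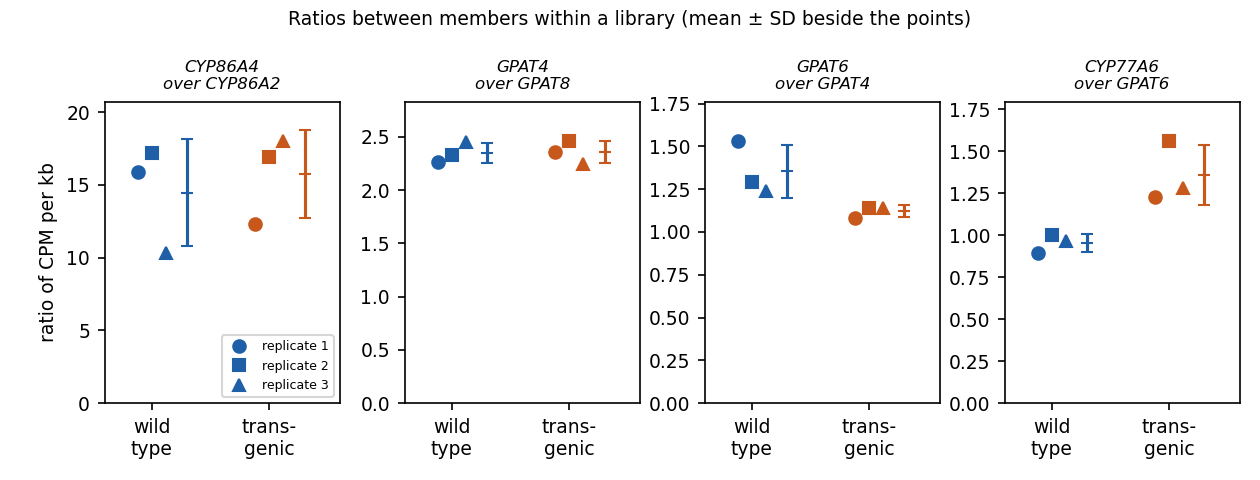
Ratio of CPM per kb between pairs of cutin synthesis genes in each library, for WT (blue) and transgenic buds (orange), with the replicate as symbol and the mean ± SD beside the points. The ratios of the close copies overlapped between genotypes, GPAT6 over GPAT4 was lower in the 3 transgenic libraries and CYP77A6 over GPAT6 was higher in them.

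The other genes of the pathway were then examined. Of 14 further cutin genes, 13 were tested and CDEF1 had 0 counts in each library. Of the 13, 0 had an unadjusted p under 0.05, 9 were higher and 4 lower in value, and the median log2 fold change was 0.11. ABCG11, a transporter that exports both cutin and wax components, had the smallest p. It read 273.7, 289.1 and 211.7 CPM in WT buds and 189.6, 208.7 and 214.9 CPM in transgenic buds, a fold of 0.79 with an interval of 0.62 to 1.01 and an unadjusted p of 0.0554. Only WT replicate 3 came within the transgenic range, and without it the unadjusted p was 0.00837 and the adjusted p 0.353. HTH, which is needed to keep floral organs from fusing, read 223.6, 263.1 and 266.4 CPM in WT and 225.5, 420.2 and 305.6 CPM in transgenic buds. Its highest library was again transgenic replicate 2. The log2 fold change of HTH was 0.34 ± 0.22 (SE), and without transgenic replicate 1 its unadjusted p was 0.0238 and its adjusted p 0.896. The most abundant of these genes, AT5G33370, had a mean of 1353.4 ± 257.9 CPM in WT and 1454.2 ± 254.3 CPM in transgenic buds (SD).

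Regulators and waxes gave the same count. Among 7 regulators of cutin genes 6 were tested, and among 10 wax genes 10 were tested, and 0 in either list had an unadjusted p under 0.05. WIN1, an AP2-type activator of cutin genes, read 75.53, 85.99 and 77.91 CPM in WT and 121.8, 96.44 and 64.96 CPM in transgenic buds, so the transgenic libraries held both the highest and the lowest value. MYB16, an activator of cutin genes in petals, had a log2 fold change of -0.35 ± 0.30 (SE). The unadjusted p of WIN1 was 0.0265 without transgenic replicate 3, and that of MYB16 was 0.0144 and of WSD1, an enzyme of wax esters, 0.0309 without WT replicate 2. Without transgenic replicate 2 it was 0.0335 for CER4 and 0.0242 for CYP96A15, and without transgenic replicate 3 it was 0.0454 for MYB96, with adjusted p values of 0.551 or more for all of these genes. CER1, an enzyme of wax alkane synthesis, had 854.0 ± 85.1 CPM in WT and 831.9 ± 230.2 CPM in transgenic buds (SD).

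Suberin is a related polyester made by other members of the same enzyme families. Of 9 suberin genes 7 were tested. With an unadjusted p under 0.05, 3 of them were higher and 1 was lower in transgenic buds, where 6.84% of all genes passed in either direction. At the adjusted threshold edgeR called 0 of the suberin genes and DESeq2 called 1, of 62 calls among its 23742 genes. CYP86A1, the suberin counterpart of CYP86A4, read 1.16, 0.901 and 0.279 CPM in WT and 3.93, 4.30 and 2.86 CPM in transgenic buds, with an adjusted p of 0.417, a level far below that of CYP86A4. ASFT, a feruloyl transferase of suberin, and the transporter gene ABCG6 had log2 fold changes of 2.19 and 1.75, with adjusted p values of 0.642 and 0.690. Both rested on few counts. ASFT had 13, 4 and 4 counts in WT and 30, 15 and 45 in transgenic buds, and ABCG6 had 8, 4 and 6 against 20, 12 and 25. CYP86B1, a hydroxylase of very long chains, went the other way, with a log2 fold change of -1.17 and an adjusted p of 0.722.

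The 300 bases before the annotated start of each gene were searched on both strands for the L1 box (TAAATGCA or TAAATGTA), which binds epidermal homeodomain factors, and for the GCC box (GCCGCC), which binds AP2-type factors. GPAT6 was the only one of the 10 genes with an L1 box, and also the only one with a GCC box. Over all tested genes with a promoter, 5.63% held an L1 box and 2.34% a GCC box. An L1 box was found for 4 of the 14 other cutin genes and 2 of the 6 epidermis markers, and a GCC box for 0 of either list. The stretch of the GPAT6 promoter that holds both is given on the gene's strand from TAIR10.1 (chr2:15955908-15956029, minus strand, 277 to 156 bases before the start), with both matches in capitals, as reverse complements of the searched letters.
GPAT6: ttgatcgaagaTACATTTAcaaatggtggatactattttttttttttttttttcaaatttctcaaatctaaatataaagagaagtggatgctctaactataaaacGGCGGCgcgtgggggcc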

How the data were processed

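RNA of young flower buds was measured in 3 WT and 3 BnA9::BnMAGL8.1 libraries. The deposited values are raw counts per gene, which the authors obtained with HISAT2 and featureCounts from a reference that joined the Arabidopsis genome and the transgene's coding sequence. The build, TAIR10, and DESeq2 are also listed in the processing notes of the submitters. Tool versions, strand and the handling of multiply mapped reads were not given in the sources used here, so counts of overlapping genes and close copies are less certain.

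Genes were kept by edgeR's filter (minimum count 10, minimum total 15), scaled by TMM and compared in R 4.3.3 by edgeR's quasi-likelihood method (version 4.0.16). Benjamini-Hochberg adjustment covered the 18642 genes kept, which held 99.9% of the counts. The design held genotype only. SEs came from the fold change and the F statistic. DESeq2 1.42.0, voom with quality weights (limma 3.58.1), other scalings and filters, a replicate block, a clock score and leaving out each library were alternatives. The test was tried on simulated data. Replicates of a genotype differed by more than sampling noise (chi-square per degree of freedom 15.4 to 56.0), so each counted once, and the p-values reflect only how these 6 samples vary.

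The members and all gene lists were chosen with earlier results of these data known. All 10 members are named. From each other list, at most 4 genes with the smallest p at a mean of at least 1 CPM and the most abundant gene could be named, and CDEF1 and DYT1, with 0 counts, CYP77A4, which shares sequence with CYP77A6, the wax genes CER4 and CYP96A15, whose p changed when a library was left out, and ABCG6, with a mean under 1 CPM, are named outside this rule after their values were seen. Gene names, exon lengths, coordinates and sequences came from the RefSeq annotation of TAIR10.1, which held 27420 of the 27629 entries. Exons of all transcripts were merged, and coding sequences were aligned globally.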

Additional observations from a re-analysis of the deposited data

How the results depend on the processing

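None of the 10 cutin synthesis genes was called at an adjusted p under 0.05 in any of the 16 alternatives, in which the lowest adjusted p of a member was 0.534 (CYP77A6 with the clock score as a covariate) and edgeR, DESeq2 or voom called 0 to 62 genes in all. The number of members with an unadjusted p under 0.05 was 0 and became 1 (CYP77A6, p 0.0311) with the replicate block. In that fit 5.16% of all genes tested passed. The number ranged from 0 to 1 when 1 library was left out, beside 3.97% to 9.31% of all genes. The number of members without overlap was 0 and became 1 (BDG) after scaling to the 6 epidermis markers. For that scaling the share of all genes was not computed. The number ranged from 0 to 4 when 1 library was left out, beside 18.1% to 27.3% of all genes. The number of other cutin genes with an unadjusted p under 0.05 was 0 and became 1 (ABCG11) with voom, beside 9.31% of all genes. With the clock score it was also 1 (ABCG11), beside 10.3%, and it ranged from 0 to 1 when 1 library was left out. The median log2 fold change of the members was 0.12 to 0.16 in the other alternatives and 0.04 to 0.26 when 1 library was left out. The cause of these shifts was not tested. Libraries with the same replicate number did not deviate together (correlations of -0.08, -0.10 and -0.35 over 18642 genes), and no library correlated best with its own number. The deviations were centred within each genotype, so these correlations constrain each other and cannot decide whether the numbers pair the samples. With 3 libraries per genotype, changes smaller than the intervals given for each gene could not be detected at this depth and spread. Larger changes could also go uncalled, so the intervals do not mark the limit of calling. At an adjusted p under 0.05 edgeR called 3 of 18642 genes. AMS, with a log2 fold change of -0.77, was not among them (adjusted p 0.565). Nor was CYP86A1, at 2.22 on few counts (adjusted p 0.417).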

Other observations

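The genes whose pattern over the 6 libraries was most like the average of the 10 cutin synthesis genes were then sought. The search covered 13601 genes outside the 10 with a mean of at least 5 CPM, and other cutin genes were not left out. The closest were AT1G66530 (Pearson r 0.993), AT4G39860 (0.982), ABCB2 (AT4G25960, 0.977), LTP6 (AT3G08770, 0.974) and AT2G21195 (0.972). LTP6 encodes a lipid transfer protein and had a mean of 2150.0 CPM, above that of each cutin synthesis gene. ABCB2 encodes a transporter of the ABC family. The SD of log2 CPM over the 6 libraries was 0.06 for AT1G66530 and 0.34 for AT2G21195, so genes that varied little and genes that varied more shared the order of the libraries. With 6 libraries and this many genes ranked, such values describe these libraries only.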
